A study of Drosophila melanogaster with 38 samples.

Results

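The contractile genes of flight muscle were followed in flies kept on restricted food, in flies moved to it, and in flies kept on control food. The set holds 10 genes chosen by symbol: the actin genes Act88F and Act79B, the troponin genes TpnC4, up and wupA, the tropomyosin gene Tm2, the myosin genes Mhc, Mlc1 and Mlc2, and the flightin gene fln. The annotation of the array named a probe set, the group of probes that reports on 1 gene, for 8 of the 10, out of 11981 genes named in all, and each of the 8 had 1 probe set. These 8 genes passed the filter of a mean score of at least 6 and are the ones counted below. wupA was named only in a list of probe sets that the study had selected on these arrays, so its values are given as a description outside the counts, and Mhc was not analysed here.

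RNA came from heads and thoraxes of Canton-S females, with at least 75 females in each pool, and the flies were 40 days old at the start of sampling. The RF cohort had been on restricted food, a dilution of the control food in sucrose and yeast, for its whole adult life, the SF cohort had been moved from control to restricted food at 40 days, and the CF cohort stayed on control food. Each cohort was sampled at 12 times between 2 and 72 h after the switch with 1 array per time point, which gives 36 arrays, and 1 RF and 1 CF array were made at 0 h. Values are expression scores on the log2 scale. Differences between cohorts are means over 12 pairs of arrays, paired by hour of collection, tested by limma with Benjamini-Hochberg adjustment over all 9420 probe sets tested and 3 comparisons together, and a gene was called at an adjusted p under 0.05. The SF flies were taken from the control-fed flies, so SF and CF shared a history up to the switch, while RF had a separate one. Each cohort was sampled through time as 1 population, so diet and any other difference between these populations cannot be told apart. The RNA was from whole body parts, so fewer muscle cells and less RNA per muscle cell cannot be told apart either.

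The arrays differed in other tissues as well, and some of those differences moved with the muscle genes. The mean score of 11 eggshell genes, which are expressed by follicle cells of the ovary, ran from 10.21 to 12.71 in RF, from 10.85 to 13.10 in SF and from 10.20 to 12.99 in CF, in RNA labelled as head and thorax. Transcripts of the labelled tissue were present on every array: the mean of 6 photoreceptor genes ran from 9.16 to 10.97 over the 36 arrays, and that of the 8 muscle genes from 9.35 to 10.89. Against CF, 0 of 11 eggshell genes, 0 of 6 photoreceptor genes and 0 of 6 neuron genes were called in RF or in SF by limma, none of them was called between SF and RF, and 0 of them had an unadjusted p under 0.05 in any of the 3 comparisons. The median eggshell gene stood at -0.11 in RF minus CF, at 0.22 in SF minus CF and at 0.32 in SF minus RF. Of the 11 eggshell genes, 3 were positive in RF minus CF, 11 in SF minus CF and 10 in SF minus RF. The absence of calls therefore does not show equal amounts of ovary RNA.

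Insect flight muscle is a striated muscle in which thick filaments of myosin slide along thin filaments of actin. The indirect flight muscles, which fill most of the thorax, are activated by stretch as well as by calcium, and they use some isoforms that other muscles lack. Act88F encodes the actin of the indirect flight muscles, TpnC4 the troponin C isoform linked to activation by stretch, and fln a protein that binds myosin in the thick filaments of these muscles. Act79B encodes an actin of other adult thoracic muscles such as the jump and leg muscles, while Mlc1, Mlc2, up, wupA, Tm2 and Mhc serve many muscles of the fly.

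In flies kept on restricted food, the actin gene Act88F was lower than on control food, while 4 of the other contractile genes were higher. TpnC4, up, Tm2 and Mlc1 rose in RF relative to CF, by 0.32 to 0.94 on the log2 scale, and Act88F fell by 0.75. Of the 8 genes, 5 were called, against 7.42% of all probe sets tested: 4 were higher, against 4.77%, and 1 was lower, against 2.65%. At an unadjusted p under 0.05 there were 7 of 8, against 23% of all probe sets. The median difference of the 8 genes was 0.35, against -0.0091 over all 9420 probe sets. The members were chosen with earlier results of these data known, so these counts are no independent test of the set. After the switch, 0 of the 8 genes were called between SF and CF by limma, where 1.8% of all probe sets were. The plot of scores by time shows the 3 cohorts for each gene.

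**Figure D1:**
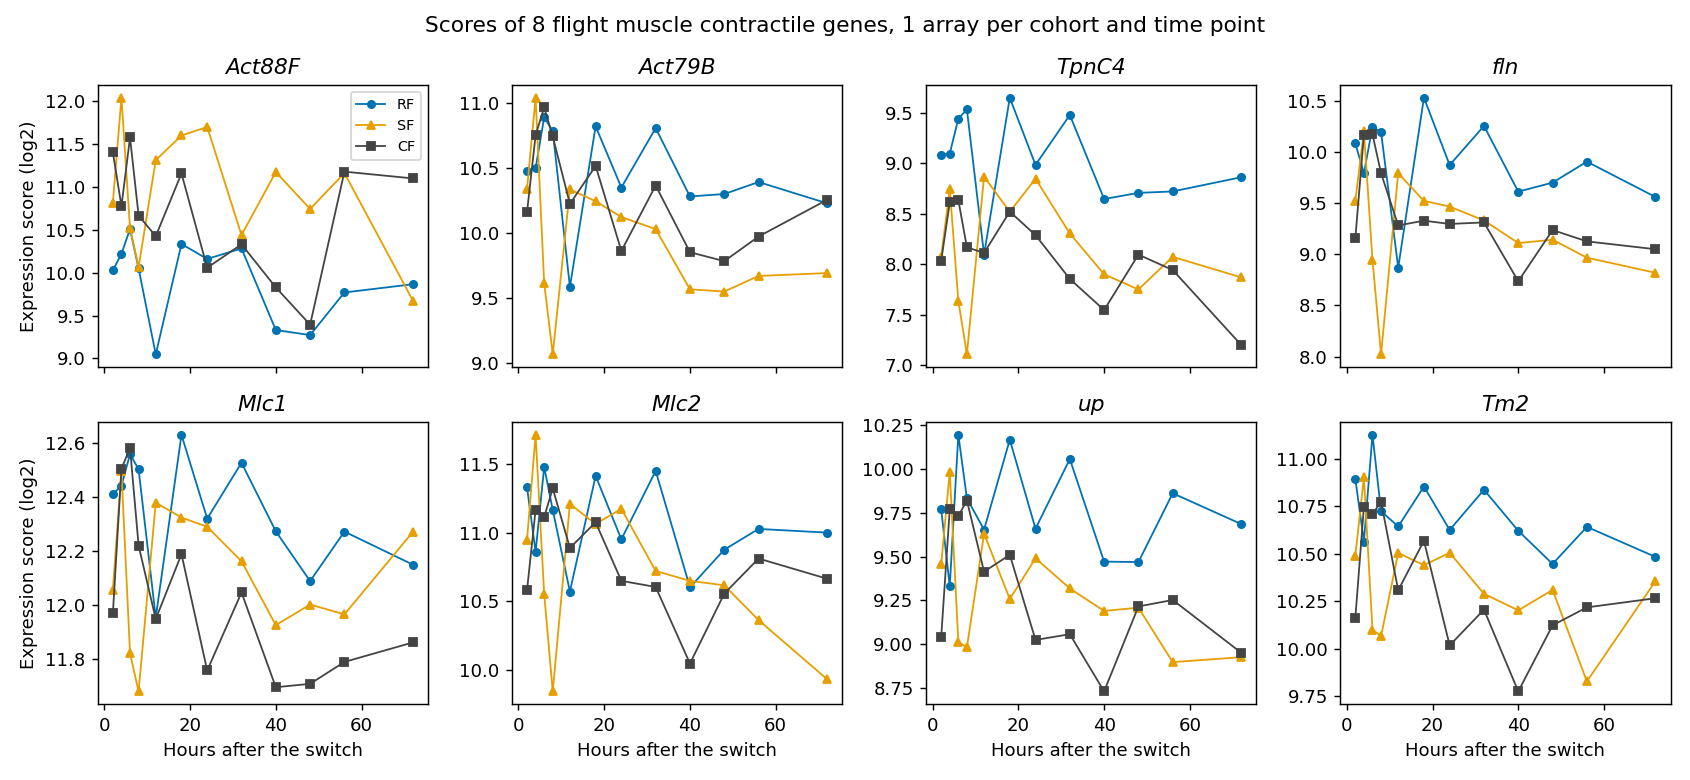
Expression scores (log2) of 8 contractile genes against hours after the switch, with 1 point per array and the RF, SF and CF cohorts as lines. RF lies below CF for Act88F at 11 of 12 time points and above CF for TpnC4 at 11 of 12.

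Act88F, the actin of the indirect flight muscle thin filament, scored between 9.05 and 10.51 on the 12 RF arrays, with a median of 10.04. In SF it ran from 9.67 to 12.04 with a median of 10.99. In CF it ran from 9.39 to 11.58 with a median of 10.72. The ranges overlapped, but 3 RF arrays lay below all CF arrays and 9 SF arrays lay above all RF arrays. The mean was 9.91 ± 0.46 in RF, 10.94 ± 0.70 in SF and 10.66 ± 0.67 in CF (SD, n = 12 each). The difference of RF minus CF was -0.75 (SE 0.14, adjusted p = 0.00875 by limma), a ratio of 0.594, with RF lower at 11 of 12 time points and the exception at 24 h, where RF was 0.10 higher. This call was lost when the arrays were not paired by time (adjusted p = 0.0844), in a single fit of the 3 cohorts (adjusted p = 0.0643) and within either the 6 early or the 6 late time points (adjusted p = 0.0803 at 2 to 18 h and 0.136 at 24 to 72 h), and it held whichever 1 time point was left out.

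Act79B, the actin of other thoracic muscles, had a difference of the opposite sign to Act88F, which did not pass the test. It ran from 9.59 to 10.89 in RF with a median of 10.44, from 9.07 to 11.04 in SF with a median of 9.86, and from 9.78 to 10.97 in CF with a median of 10.24. The ranges overlapped widely, and the SF arrays spread the most. The mean was 10.45 ± 0.36 in RF, 9.94 ± 0.52 in SF and 10.29 ± 0.39 in CF (SD, n = 12 each). RF minus CF was 0.16 (SE 0.096, adjusted p = 0.472), and the sign was positive at 8 of 12 time points. Act79B was called higher in RF with array weights and at 24 to 72 h alone (adjusted p between 0.0228 and 0.0233 by limma). The 2 actin genes differed in their response on every pair of arrays: the RF minus CF difference of Act88F was below that of Act79B at 12 of 12 time points, by 0.92 on average (SE 0.14). The set was proposed with this contrast in view, so it is given as a description with no test.

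TpnC4, the troponin C isoform linked to activation by stretch, had the largest rise among the 8 genes. Its score on RF arrays ran from 8.10 to 9.65, with a median of 9.04. In SF it ran from 7.11 to 8.87 with a median of 8.07, and in CF from 7.20 to 8.64 with a median of 8.10. All RF arrays but the one at 12 h lay above every CF array, so that 11 of 12 RF arrays did not overlap with CF. How many of all probe sets were separated as far was not counted, for TpnC4 or for the other members. RF minus CF was 0.94 (SE 0.13, adjusted p = 8.00e-04), a ratio of 1.92, and it was called under every alternative but the 6 early time points alone (adjusted p = 0.239).

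The other proteins of thin filament regulation rose by less. The troponin T gene up ran from 9.33 to 10.19 in RF with a median of 9.73, from 8.90 to 9.98 in SF with a median of 9.23, and from 8.73 to 9.82 in CF with a median of 9.23. The ranges overlapped, with 5 of 12 RF arrays above all CF arrays, and RF minus CF was 0.47 (SE 0.10, adjusted p = 0.0224). Leaving out the pair at 18, 24, 32, 40, 56 or 72 h ended this call, with adjusted p between 0.0501 and 0.0562.

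Tm2, which encodes tropomyosin, ran from 10.45 to 11.13 in RF with a median of 10.64, from 9.83 to 10.90 in SF with a median of 10.33, and from 9.77 to 10.77 in CF with a median of 10.24. RF minus CF was 0.38 (SE 0.082, adjusted p = 0.0176), higher in RF at 10 of 12 time points, and 4 RF arrays lay above all CF arrays. The Tm2 probe set is of a kind that the manufacturer marks as able to match more than 1 gene. wupA, the troponin I gene, averaged 12.89 ± 0.13 in RF, 12.63 ± 0.19 in SF and 12.62 ± 0.22 in CF (SD, n = 12 each), and was higher in RF than in CF at 11 of 12 time points. Since its probe set was known only from a selection on the same contrast, this pattern is no independent result.

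The thick filament genes were also higher in RF than in CF, though only Mlc1 passed the test. Mlc1, the essential myosin light chain, ran from 11.95 to 12.63 in RF with a median of 12.37, from 11.68 to 12.50 in SF with a median of 12.11, and from 11.70 to 12.58 in CF with a median of 11.96. The ranges overlapped almost fully, with 1 RF array above all CF arrays. RF minus CF was 0.32 (SE 0.064, adjusted p = 0.0113), with RF higher at 10 of 12 time points, and the call was lost without pairing by time (adjusted p = 0.111). Mlc2, the regulatory myosin light chain, ran from 10.57 to 11.48 in RF with a median of 11.01, from 9.84 to 11.71 in SF with a median of 10.68, and from 10.04 to 11.32 in CF with a median of 10.74. Its ranges overlapped, with 4 RF arrays above all CF arrays. It averaged 11.06 ± 0.31 in RF and 10.79 ± 0.35 in CF (SD, n = 12 each), a difference of 0.27 (SE 0.099, adjusted p = 0.190) that did not pass. Mlc2 was called higher in RF with array weights and at 24 to 72 h alone (adjusted p between 0.0135 and 0.0221 by limma).

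The flightin gene fln lay close to the threshold. It ran from 8.87 to 10.53 in RF with a median of 9.89, from 8.02 to 10.20 in SF with a median of 9.24, and from 8.74 to 10.17 in CF with a median of 9.29. Its RF minus CF difference of 0.50 (SE 0.13, adjusted p = 0.0608) was larger than those of up, Tm2 and Mlc1 but had a larger error. It was called without the pair at 4 h or at 12 h (adjusted p = 0.0182 and 0.0176) and with the eggshell mean as a covariate (adjusted p = 0.0341). At 12 h the RF array was the lowest RF array for 6 of the 8 genes, among them fln, and its eggshell mean of 12.71 was the highest in RF.

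**Figure D2:**
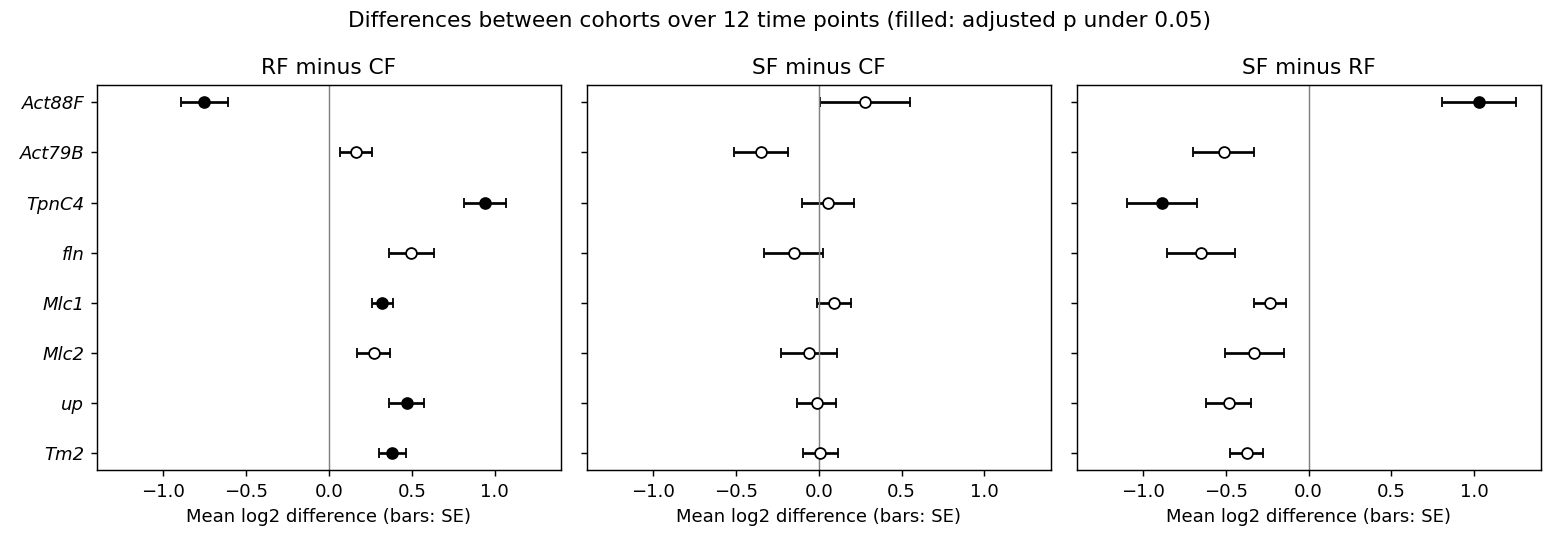
Mean log2 differences of 8 contractile genes over 12 pairs of arrays, with bars of 1 standard error, for RF minus CF, SF minus CF and SF minus RF; filled points have an adjusted p under 0.05. Act88F stands at -0.75 in RF minus CF and at 1.03 in SF minus RF, on the other side of 0 from the other 7 genes in both.

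The switch asked whether these genes move toward the restricted level within 72 h. None of the 8 genes was called in SF minus CF by limma or by the methods' paired t-test, and 1 of 8, Act79B, had an unadjusted p under 0.05 (p = 0.0490 by limma), against 9.12% of all probe sets. The differences ran from -0.35 for Act79B to 0.28 for Act88F. For TpnC4, SF minus CF was 0.058 with a 95% interval from -0.28 to 0.40, and the RF minus CF difference of 0.94 lay outside it. For Act88F the interval ran from -0.30 to 0.86, and the RF minus CF difference of -0.75 lay outside it. The errors were larger than for RF minus CF, and 6 SF arrays of Act79B lay below all CF arrays while 1 lay above. Mlc1 was called higher in SF within 24 to 72 h alone, at 0.29 (SE 0.068, adjusted p = 0.0338), and not over all 12 time points, at 0.092 (SE 0.10, adjusted p = 0.699).

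Between the 2 cohorts on restricted food, 2 of the 8 genes differed. Act88F was higher in SF than in RF by 1.03 (SE 0.22, adjusted p = 0.0197), a ratio of 2.04, at 11 of 12 time points. The exception was 72 h, the last time point, where Act88F scored 9.67 in SF, 9.87 in RF and 11.10 in CF. SF and RF were nearly equal for Act88F at 6 h (10.52 and 10.51) and at 8 h (10.06 and 10.05). TpnC4 was lower in SF than in RF by a difference of -0.89 (SE 0.21, adjusted p = 0.0345), a ratio of 0.541, at 11 of 12 time points. These were the 2 calls among the 8 genes, against 1.95% of all probe sets: 1 higher, against 0.446%, and 1 lower, against 1.51%. At an unadjusted p under 0.05 there were 7 of 8, against 12.4% of all probe sets. Act88F and TpnC4 were also the 2 genes called in RF minus CF and in SF minus RF but not in SF minus CF, a pattern held by 1.5% of probe sets. The comparisons share the RF and CF arrays, so they are not independent of each other.

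The SF minus RF differences of the remaining 6 genes were all negative and none passed. They were -0.65 for fln (SE 0.21, adjusted p = 0.123), -0.51 for Act79B (SE 0.18, adjusted p = 0.175), -0.48 for up (SE 0.14, adjusted p = 0.0776) and -0.37 for Tm2 (SE 0.10, adjusted p = 0.0606). Mlc2 and Mlc1 stood at -0.33 and -0.23. The count of calls in this comparison depended on single time points: leaving out the pair at 2, 6, 18, 32, 40, 48, 56 or 72 h ended the TpnC4 call (adjusted p between 0.0606 and 0.0764), while leaving out 4 h or 12 h gave 4 calls in place of 2. With the eggshell mean as a covariate 5 of the 8 were called, Act88F higher and TpnC4, fln, Act79B and up lower in SF. Calls over all 9420 probe sets rose as well, from 42 higher and 142 lower to 84 and 232 with the covariate. Without 4 h they were 51 and 186, and without 12 h 41 and 218.

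Act88F stood apart from each of the other 7 genes, and not from the group mean alone. In RF minus CF its difference was below those of all 7 others at 12 of 12 time points. The mean gap ran from -1.69 against TpnC4 to -0.92 against Act79B, with standard errors of 0.14 to 0.20. In SF minus RF the gap ran from 1.26 against Mlc1 to 1.92 against TpnC4, and Act88F was above all 7 others at 11 of 12 time points. In SF minus CF the gap was smaller, from 0.19 to 0.63, with standard errors of 0.21 to 0.29. By cohort mean, RF was the highest of the 3 cohorts for the other 7 genes, and the lowest for Act88F.

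The gap to TpnC4 on the same array is shown because TpnC4 had the difference most opposed to Act88F, so it is the pair with the widest contrast and a description only. Act88F minus TpnC4 ran from 0.51 to 1.17 on RF arrays with a mean of 0.88 ± 0.22 (SD, n = 12). On SF arrays it ran from 1.80 to 3.29 with a mean of 2.80 ± 0.45, and on CF arrays from 1.30 to 3.90 with a mean of 2.57 ± 0.71 (SD, n = 12 each). No RF array overlapped with an SF or CF array in this pair. For the gap to each of the other 6 genes, 5 to 8 of 12 RF arrays lay below all CF arrays and 3 to 12 of 12 below all SF arrays, so that RF and CF overlapped in all 6. The size of the gap also holds the difference in brightness between 2 probe sets, so only its change between cohorts can be read. At 0 h the gap was 1.35 on the RF array and 2.95 on the CF array.

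**Figure D3:**
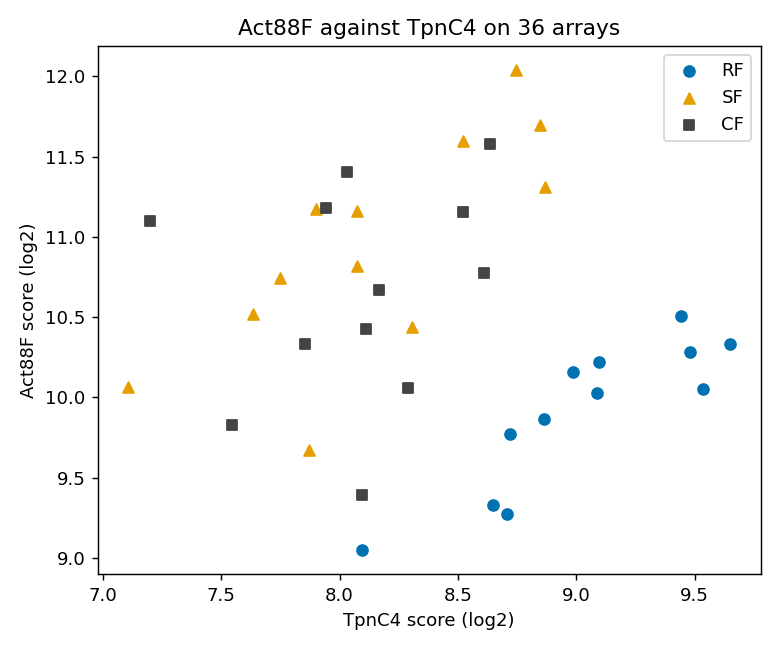
Act88F score against TpnC4 score (both log2) on 36 arrays, 1 point per array, with RF, SF and CF marked. The RF arrays form a band below and to the right of the SF and CF arrays, with Act88F minus TpnC4 at most 1.17 in RF and at least 1.30 in CF.

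Pair by pair, the other 7 genes moved largely together. All 7 were higher in RF than in CF at 2, 18, 24, 32, 40, 48 and 56 h, and at no time were all 7 lower. All 7 were lower in SF than in RF at 2, 6, 8, 18, 32, 48 and 56 h. At 4 h 6 of the 7, and at 12 h 5 of the 7, were instead higher in SF than in RF: TpnC4, fln and Act79B were 0.77, 0.92 and 0.75 higher in SF than in RF at 12 h, and Mlc2, up and Tm2 were 0.85, 0.65 and 0.34 higher in SF at 4 h. Single genes were higher in SF at 24 h (Mlc2, by 0.22), at 40 h (Mlc2, by 0.047) and at 72 h (Mlc1, by 0.12). The heat map of differences by time point shows these columns.

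**Figure D4:**
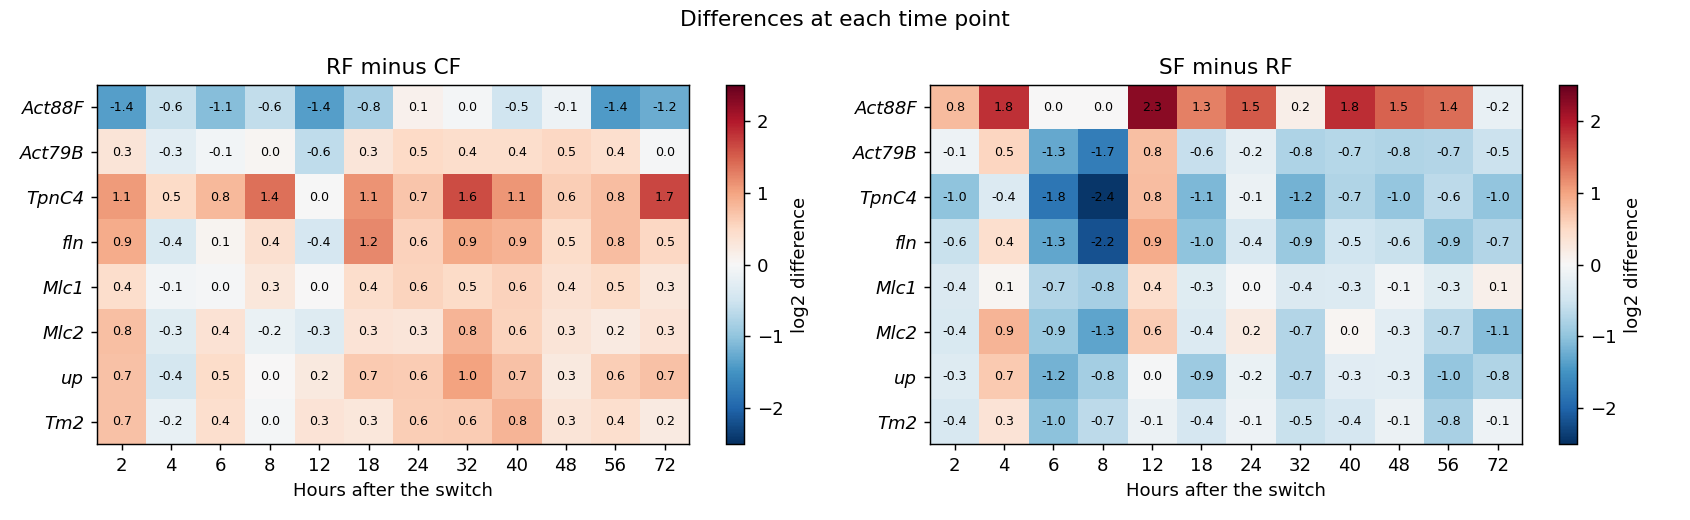
Log2 differences of 8 contractile genes at each of 12 time points, RF minus CF on the left and SF minus RF on the right, with the value printed in each cell. The Act88F row is mostly opposite in colour to the 7 rows under it in both panels, and the columns at 4 h and 12 h differ from the others.

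Single arrays set the extremes of several genes at once. The SF array at 4 h was the highest SF array for 7 of the 8 genes, all but TpnC4, and had an eggshell mean of 10.86. The SF array at 8 h was the lowest SF array for 5 of the 8, Act79B, TpnC4, fln, Mlc1 and Mlc2, and had the highest eggshell mean of all 36 arrays, 13.10. The CF array at 40 h was the lowest CF array for 5 genes with an eggshell mean of 11.99. The 7 genes other than Act88F fell with the eggshell mean across arrays: Pearson's r ran from -0.70 for Act79B to -0.54 for Tm2 over 36 arrays (permutation p adjusted over the 8 genes at most 8.11e-04), and Spearman's rho from -0.73 for Mlc2 to -0.58 for Tm2. Without the 2 arrays farthest from the median eggshell mean, r was -0.71 for fln and -0.55 for Tm2. For Act88F, r was -0.21 (permutation p = 0.221) and rho -0.17 (permutation p = 0.318) over 36 arrays, and -0.23 without the 2 arrays. Within cohorts of 12 arrays, r for Act88F was -0.57 in RF, -0.56 in SF and -0.16 in CF, and for TpnC4 it was -0.80 in RF, -0.87 in SF and -0.46 in CF. Tm2 stood at -0.30 in RF, so Act88F was not set apart within RF. Tm2 was at -0.76 in SF and -0.64 in CF. The r over 36 arrays also holds differences between cohorts, and its permutation shuffled arrays without regard to cohort or time. How many of all probe sets fell with the eggshell mean was not counted.

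**Figure D5:**
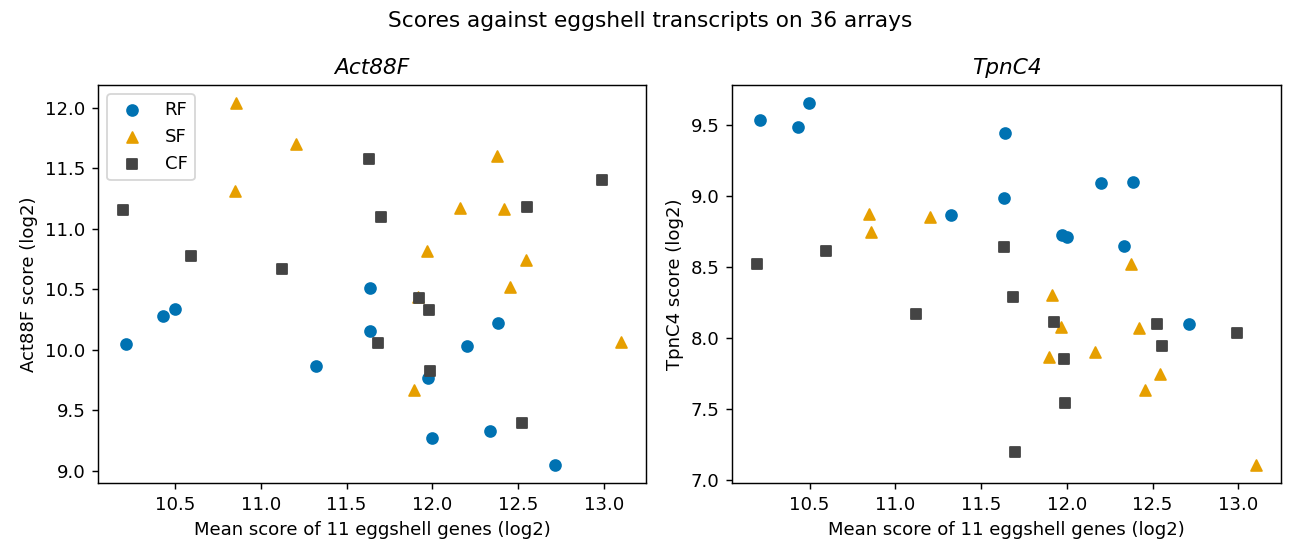
Scores (log2) of Act88F and TpnC4 against the mean score of 11 eggshell genes on 36 arrays, with RF, SF and CF marked. TpnC4 is lower where the eggshell mean is higher within each cohort (r between -0.87 and -0.46), and most RF arrays lie above the SF and CF arrays of a like eggshell mean, while for Act88F most lie below with some overlap.

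With the eggshell mean as a covariate the RF minus CF differences changed little. Act88F stood at -0.76 (SE 0.15, adjusted p = 0.00895), TpnC4 at 0.90 (SE 0.10, adjusted p = 2.96e-04) and up at 0.43 (SE 0.086, adjusted p = 0.0106). The SF minus RF difference of Act88F was 1.19 with the covariate (SE 0.17, adjusted p = 0.00123), and that of TpnC4 was -0.70 (SE 0.11, adjusted p = 0.00314). For the 7 genes other than Act88F the SF minus RF differences were smaller with the covariate, for example -0.35 for Act79B (SE 0.092, adjusted p = 0.0486), against -0.51 without it, and -0.17 for Mlc2 (SE 0.10, adjusted p = 0.474), against -0.33 without it.

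No change between the early time points, 2 to 18 h, and the late ones, 24 to 72 h, passed the test. Act88F had a mean RF minus CF difference of -0.97 at 2 to 18 h and -0.53 at 24 to 72 h, a change of 0.44 (SE 0.27, adjusted p = 0.339 by limma). For the other 7 genes RF minus CF was larger at the late time points, for example 0.28 early and 0.66 late for up and 0.30 early and 0.69 late for fln. Of the 8 genes, 0 were called for such a change in RF minus CF, as were 0% of probe sets, and 2, Act79B and Mlc1, had an unadjusted p under 0.05 (p = 0.0171 and 0.0195 by limma) against 21.7% of probe sets. In SF minus CF 0 of 8 were called against 0.0106%, and Mlc1 had an unadjusted p of 0.0472 by limma, with 14.2% of probe sets under 0.05.

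The arrays at 0 h, which entered no test, were 1 pair from flies kept on either food. Their eggshell means were 5.66 in RF and 8.57 in CF, and the part of that difference in the muscle scores was not tested. RF minus CF was -0.74 for Act88F, 0.86 for TpnC4, 0.53 for fln, 0.34 for Mlc1 and 0.27 for Act79B. These 5 and Tm2, which stood at 0.016, had the sign of their later mean, 6 of the 8 genes. The troponin T gene up at -0.015 and Mlc2 at -0.046 had the opposite sign to their later means of 0.47 and 0.27. With 1 array per cohort these differences have no replicate check. The levels themselves were high at 0 h: 7 of the 8 genes scored above all 12 later RF arrays on the RF array, where 29.3% of probe sets did, and 8 of 8 above all 12 later CF arrays on the CF array, where 26.9% did.

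Beyond the contractile set, 4 of 18 other sarcomere genes were called higher in RF than in CF, against 4.77% of all probe sets, and 0 lower, against 2.65%. The median of the 18 was 0.15, and 14 of them were positive. Mlp60A, a muscle LIM protein gene, rose by 0.34 (SE 0.065, adjusted p = 0.00933), and Prm, the paramyosin gene of the thick filament core, rose by 0.37 (SE 0.089, adjusted p = 0.0331). TpnC73F, another troponin C, and Act87E, another muscle actin, rose by 0.34 each (SE 0.079 and 0.088, adjusted p = 0.0259 and 0.0481). The Act87E probe set, like that of Tm2, is marked as able to match more than 1 gene. Fhos, a formin that assembles thin filaments, stood at -0.20 in RF minus CF (adjusted p = 0.114) and 0.28 in SF minus RF (adjusted p = 0.232), the sign of Act88F without passing. By limma 0 of the 18 were called in SF minus CF (0 at an unadjusted p under 0.05) and 0 in SF minus RF (7 at an unadjusted p under 0.05, against 12.4% of all probe sets), where Mlp60A stood at -0.34 (adjusted p = 0.0508).

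Genes that serve muscle in other ways showed no calls in any comparison by limma: 0 of 6 for calcium handling and energy supply, 0 of 4 muscle regulators of transcription and splicing, 0 of 2 sarcomere chaperones and 0 of 3 non-muscle cytoskeletal genes. At an unadjusted p under 0.05 there were 3 of the 6 energy supply genes in RF minus CF, against 23% of all probe sets, 1 in SF minus CF, against 9.12%, and 4 in SF minus RF, against 12.4%, and 0 of the other 3 lists. The medians in RF minus CF were 0.046, 0.12, 0.0054 and -0.027. RyR, the calcium release channel, stood at 0.22 (SE 0.089, adjusted p = 0.241), and Argk1, the arginine kinase that buffers ATP, at 0.090 (SE 0.035, adjusted p = 0.230), both with unadjusted p under 0.05. Markers of 2 other tissues did change between RF and CF. Of 6 fat body genes 3 were lower in RF, against 2.65% of all probe sets, led by the storage protein gene Lsp2 at -3.17 (SE 0.24, adjusted p = 1.11e-05), and of 5 midgut genes 3 were higher, against 4.77%, and 1 lower, led by the protease gene Jon25Bii at 0.92 (SE 0.16, adjusted p = 0.00452). In SF minus CF 2 of the 6 fat body genes were called, both lower, and 0 of the 5 midgut genes (0 at an unadjusted p under 0.05 by limma), against 1.8% of all probe sets. In SF minus RF 0 of the 6 fat body genes were called by limma (1 at an unadjusted p under 0.05). Of the 5 midgut genes 2 were lower, against 1.51% of all probe sets, Jon25Bii at -0.95 (SE 0.17, adjusted p = 0.00646) and Jon66Ci at -0.74 (SE 0.16, adjusted p = 0.0167). Jon25Bii, Jon66Ci and Jon65Ai had the signs of TpnC4 in RF minus CF and in SF minus RF. Mal-A1 had the opposite signs, at -0.33 (adjusted p = 0.00316 by limma) and 0.20 (adjusted p = 0.0655). Jon74E stood at -0.096 and 0.00085, so the midgut list did not move as one with TpnC4. The part of midgut RNA in the TpnC4 scores was not tested.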

How the data were processed

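Total RNA of heads and thoraxes was measured on Affymetrix Drosophila 2.0 arrays. RMA with quantile normalization was run by the authors, and the deposited values are log2 expression scores; an array carries no read depth, and the number of arrays limits the precision. The table held 18952 probe sets, of which 183 array controls were left out, and 9420 with a mean score of at least 6 over the 36 arrays at 2 to 72 h were tested. Probe sets were named through the platform annotation with current symbols (13646 with 1 gene, 402 with several, 4904 with none named), using for each gene the probe set with the highest mean. RF minus CF, SF minus CF and SF minus RF were fitted with limma 3.58.1 in R 4.3.3 (lmFit on the 12 within-time differences, eBayes), and p-values were adjusted over the 3 comparisons together by the Benjamini-Hochberg method at 0.05. Arrays were paired by time because the study's methods did so. The deviations of arrays taken at the same time correlated with a median r of 0.51 for RF and CF, 0.15 for SF and CF and 0.071 for SF and RF. The spread behind each p-value is that between time points, since each cohort had 1 array at each time.

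The change between 2 to 18 h and 24 to 72 h was fitted with limma on the same differences, adjusted within each comparison. Correlations with the eggshell mean were tested by 100000 permutations of the 36 arrays. The fit was tested on simulated data. Named genes were the set itself, up to 4 called genes per other list, and the 5 genes most like each pattern; RyR and Argk1 fall outside this rule and were picked with their values in view. The members and lists were chosen with earlier results of these data known. Lists covered other sarcomere proteins, muscle calcium and energy genes, muscle regulators, chaperones, non-muscle cytoskeleton, eggshell, photoreceptor, neuron, fat body and midgut genes. Alternatives covered pairing, filter, centring, array weights, the methods' t-test with Storey adjustment, adjustment within a comparison, a single fit, an eggshell covariate, the early or late time points alone and leaving out each time point.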

Additional observations from a re-analysis of the deposited data

Results flagged for a closer look

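The arrays at 0 h, which no comparison used, stood above the later arrays for nearly all contractile genes. The RF array at 0 h scored above all 12 later RF arrays for 7 of the 8 genes, all but Tm2, where 29.3% of probe sets did, and the CF array above all 12 later CF arrays for 8 of 8, where 26.9% did. Act88F scored 11.47 at 0 h in RF, which was 1.57 above the mean of the later RF arrays, and 12.21 in CF, which was 1.55 above the later mean. The eggshell mean was 5.66 on the RF array and 8.57 on the CF array at 0 h, below every later array of either cohort, while the photoreceptor mean was 11.52 in RF and 11.18 in CF and the neuron mean 9.32 in RF and 9.24 in CF, above every later array. The part of these shifts in the muscle scores was not tested, and each 0 h value rests on 1 array.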

How the results depend on the processing

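In RF minus CF, 5 of 8 genes were called. The count was 3 with no replicate block (no pairing by time), 8 with array weights, 0 at 2 to 18 h alone and 4 to 6 with 1 time point left out. At 24 to 72 h alone Act79B, fln and Mlc2 were called higher in RF as well, and the Act88F call was lost. Over all 9420 probe sets, 449 were called higher and 250 lower in the main fit. These were 212 and 126 without pairing, 958 and 604 with array weights, 12 and 5 at 2 to 18 h alone, and 949 and 774 at 24 to 72 h alone. With 1 time point left out they ran from 307 to 551 and from 179 to 265. In SF minus CF the count of the 8 genes was 0, and 1 with array weights and at 24 to 72 h alone. Over all 9420 probe sets, 52 were called higher and 118 lower in the main fit. These were 211 and 258 with array weights, and 207 and 199 at 24 to 72 h alone. In SF minus RF the count was 2, against 4 without the replicate block, 7 with array weights and 1 when each comparison was adjusted on its own. It was 5 in a single fit of the 3 cohorts, 5 with the eggshell covariate, 0 at 2 to 18 h alone, 5 at 24 to 72 h alone and 1 to 4 with 1 time point left out. Over all 9420 probe sets, 42 were called higher and 142 lower in the main fit. These were 49 and 139 without the replicate block, 265 and 640 with array weights, and 29 and 88 with each comparison on its own. They were 67 and 243 in the single fit, 84 and 232 with the eggshell covariate, and 1 and 0 at 2 to 18 h alone. At 24 to 72 h alone they were 177 and 312, and 28 to 51 and 91 to 218 with 1 time point left out. The RF minus CF difference of Act88F minus the mean of the other 7 ran from -1.26 to -1.11 with 1 time point left out. The early or late time points alone are 6 pairs; the cause of the other shifts was not tested. Signs turned only for differences that had not passed the test. In SF minus CF, Mlc2 became 0.13 with array weights, 0.028 with the eggshell covariate and 0.021 at 24 to 72 h, up became 0.13, 0.060 and 0.13 under the same settings, and fln 0.066 with array weights and 0.013 at 24 to 72 h. At 2 to 18 h alone, SF minus CF was -0.11 for Mlc1, -0.19 for TpnC4 and -0.13 for Tm2, and RF minus CF was -0.051 for Act79B. With 1 time point left out, SF minus CF ran from -0.034 to 0.075 for Tm2, -0.057 to 0.062 for up, -0.12 to 0.071 for Mlc2 and -0.0060 to 0.16 for TpnC4. The change of SF minus CF between early and late time points was -0.020 for Act79B and -0.054 for Mlc2 with the eggshell covariate, -0.0043 for Mlc2 and -0.0036 for Act88F per hour with linear time, and ran from -0.035 to 0.36 for Act79B and -0.11 to 0.31 for Mlc2 with 1 time point left out. A mean over all probe sets of a gene was not run, as each of the 8 genes has 1.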

Other observations

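Act88F and the mean of the other 7 contractile genes had different nearest genes once each array was taken relative to its cohort mean. No other single member was ranked in this way, so the difference is not shown to be particular to Act88F. Over 36 arrays and 7818 named genes, those most like Act88F were Ilk, the integrin-linked kinase gene (r = 0.80), the calcineurin gene CanA1 (r = 0.78), the formin gene Fhos (r = 0.77), the myosin chaperone gene unc-45 (r = 0.77) and l(2)k09913 (r = 0.75). Of these, l(2)k09913 was the one called, with an RF minus CF difference of -0.14 (adjusted p = 0.0137 by limma). Those most like the mean of the other 7 were CG9297 (r = 0.97), the glutamate receptor gene clumsy (r = 0.97), the receptor chaperone gene RIC-3 (r = 0.96), Appl, an amyloid precursor-like gene of neurons (r = 0.96), and the muscle kinase gene Strn-Mlck (r = 0.96), none of them called in any of the 3 comparisons. Fhos correlated more with the mean of the other 7 (r = 0.86) than with Act88F. The sarcomere gene Obsc ranked 7 for both patterns (r = 0.74 with Act88F and 0.96 with the mean). The points share array-wide differences such as the eggshell mean, so these values describe the arrays. Act88F correlated with the other members at r of 0.54 to 0.74, and the others with each other at 0.62 to 0.92. Within cohorts, the median r of Act88F with the others was 0.82 in RF, 0.71 in SF and 0.51 in CF. Among the others it was 0.80 in RF, 0.84 in SF and 0.82 in CF, so Act88F was not set apart within RF.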
